A study of Rattus norvegicus with 22 samples.

Results

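The proteasome genes of the rat were followed over 22 expression arrays of maternal and embryonic tissue. Their probe sets were chosen by name: every probe set with a single annotated symbol that starts with Psma, Psmb, Psmc, Psmd, Psme, Psmf or Psmg was taken. This gave 46 of the 15866 probe sets tested, for 43 of 10411 genes. Of the 43 genes, 41 encode proteasome subunits, activators or assembly factors, and 2 carry such a symbol without being proteasome genes (Psmc3ip and Psme3ip1). The 41 genes comprised 7 of the 20S alpha ring, 6 of the constitutive 20S beta ring, 3 immunoproteasome subunits, 5 ATPases and 9 non-ATPase subunits of the 19S regulator, 4 activators or inhibitors, and 7 assembly chaperones. The 38 genes other than the immunoproteasome subunits are called constitutive below. Of 47 proteasome genes sought, 6 (Psma8, Psmb6, Psmc6, Psmd12, Psmd14 and Psme3) had no probe set with their symbol alone, and 6 probe sets with several symbols, such as Psmb6l1 and Psmb6, were left aside. The members are bright on the array, with a median percentile of 90.5 for their mean level among all probe sets and a lowest percentile of 41.3, that of Psmb9, and all 46 were tested without a filter on low values.

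Pregnant Wistar rats were control animals, or were given EMD 82571 (named MSC1096199 in the series' design text) or retinoic acid. The doses of EMD 82571 were 50 and 150 mg/kg/day, called EMD50 and EMD150 here, and that of retinoic acid was 12 mg/kg/day. Maternal liver and whole embryo were taken at gestational day 12, and maternal liver, embryo liver and embryo bone at day 20, which makes 5 strata of tissue and day. In each stratum every treatment and the control had 1 array, except that retinoic acid had 2 arrays in both strata of day 12. The retinoic acid samples carry the codes RA5 and RA56, which the sources do not explain: both occur at day 12 and RA56 alone at day 20. Dosing ran over days 6 to 11 and 6 to 17 in one protocol text and over days 6 to 17 in another. Ages and numbers of dams, whether RNA was pooled, and which samples share a dam or litter are not stated in the sources used here. Nothing states that arrays of a treatment come from separate animals, so p-values measure the spread between these samples only.

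The proteasome is the large protease that degrades ubiquitin-tagged proteins in all cells. Its 20S core has outer alpha rings that gate the entrance and inner beta rings that hold the proteolytic sites, the 19S regulator recognises and unfolds the substrate, and the PA28 (Psme1 and Psme2) and PA200 (Psme4) activators open the core in its place. In cells exposed to interferon gamma, and constitutively in many immune cells, Psmb8, Psmb9 and Psmb10 replace the catalytic subunits Psmb5, Psmb6 and Psmb7 in new particles, called immunoproteasomes, and alter the peptides offered to class I histocompatibility molecules.

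Values are log2 probe set intensities, so a difference of 1 is a 2-fold change, and differences are given with their standard error (SE) from a limma model with the stratum and the treatment as terms. The array medians lay between 8.09 and 8.22 and the array SDs between 1.51 and 1.83, and in each of the 5 strata the EMD150 array had a lower SD than the control. The mean over 8 hepatocyte genes was 11.0 to 11.4 in maternal liver, 11.3 to 11.4 in embryo liver, 8.15 to 9.33 in whole embryo with both retinoic acid arrays highest (9.33 for RA5 and 9.08 for RA56), and 7.77 to 9.29 in embryo bone with the control highest. The mean over 7 bone and cartilage genes was 11.9 to 12.2 in embryo bone. The EMD50 bone array had a 3' minus 5' difference of 2.72 for the GAPDH control, against 0.568 to 0.859 on the other arrays. The retinoic acid array of maternal liver at day 20 had a mean of 10.4 over 8 skeletal muscle genes, where the lowest array of that stratum had 7.27, and that of bone had 11.0 against 10.3 to 10.6 on the other bone arrays. These 3 arrays and the RA56 whole embryo are the 4 arrays left out together in a repeat of each fit. The muscle mean of that embryo, 7.62, was near the 7.50 to 7.59 of the other whole embryo arrays. The RA5 whole embryo, with a higher hepatocyte mean (9.33 against 9.08), and the control bone array (9.29) were kept. All of the 4 but the EMD50 bone array are retinoic acid arrays, so comparisons with retinoic acid also lose arrays of that group in this repeat.

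The start regions of the immunoproteasome genes are shown with those of Psme2 and Psmb5, because they carry the motifs searched in these genes. Sequences are RefSeq's on assembly GRCr8, from 250 bases before to 50 after the annotated start, and they matched 39 of the 41 genes by symbol. Both strands were read. Capitals mark an interferon-stimulated element (GAAA and GAAA with 2 bases of any kind between), TTCCNNGAA (a gamma-activated site) or TGACNNNGC (the core of an antioxidant response element). The windows are chr20:4656982-4657281, minus strand, for Psmb8; chr20:4668750-4669049, plus strand, for Psmb9; chr19:50743243-50743542, minus strand, for Psmb10; chr15:33052702-33053001, minus strand, for Psme2; and chr15:32047330-32047629, minus strand, for Psmb5.
Psmb8: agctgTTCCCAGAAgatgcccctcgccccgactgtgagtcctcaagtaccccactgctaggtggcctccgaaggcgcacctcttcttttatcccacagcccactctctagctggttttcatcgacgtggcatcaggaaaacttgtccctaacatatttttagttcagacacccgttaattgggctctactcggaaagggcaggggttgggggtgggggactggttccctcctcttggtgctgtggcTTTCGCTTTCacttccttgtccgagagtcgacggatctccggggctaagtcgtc
Psmb9: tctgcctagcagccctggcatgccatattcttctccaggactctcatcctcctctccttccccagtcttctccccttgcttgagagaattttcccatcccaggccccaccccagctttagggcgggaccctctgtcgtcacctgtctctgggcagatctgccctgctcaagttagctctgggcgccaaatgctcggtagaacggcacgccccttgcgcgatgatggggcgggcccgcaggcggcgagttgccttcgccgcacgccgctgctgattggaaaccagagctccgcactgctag
Psmb10: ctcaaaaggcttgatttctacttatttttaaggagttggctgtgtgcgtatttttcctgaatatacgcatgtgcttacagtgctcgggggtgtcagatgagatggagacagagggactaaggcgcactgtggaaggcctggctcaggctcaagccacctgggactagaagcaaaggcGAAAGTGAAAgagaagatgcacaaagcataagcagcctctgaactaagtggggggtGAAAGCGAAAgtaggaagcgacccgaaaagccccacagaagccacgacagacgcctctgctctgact
Psme2: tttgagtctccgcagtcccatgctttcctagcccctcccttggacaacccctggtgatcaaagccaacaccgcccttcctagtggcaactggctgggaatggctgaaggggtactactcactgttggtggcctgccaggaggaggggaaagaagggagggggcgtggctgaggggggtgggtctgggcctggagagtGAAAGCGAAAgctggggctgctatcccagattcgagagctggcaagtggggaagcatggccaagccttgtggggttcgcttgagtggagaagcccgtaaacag
Psmb5: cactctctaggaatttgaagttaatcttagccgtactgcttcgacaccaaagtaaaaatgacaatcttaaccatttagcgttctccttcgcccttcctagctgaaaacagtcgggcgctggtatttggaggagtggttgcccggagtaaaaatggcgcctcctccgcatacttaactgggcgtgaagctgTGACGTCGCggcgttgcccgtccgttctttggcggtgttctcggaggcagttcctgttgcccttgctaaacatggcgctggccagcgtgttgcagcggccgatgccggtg

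The interferon-stimulated letters occurred once in the Psmb8 window, on the minus strand and 4 bases before the start, and at 2 places in the Psmb10 window, 73 and 17 bases before it. They were also present 53 bases before the start of Psme2, a subunit of the interferon-inducible PA28 activator. Among all 33469 promoters of this length 3.92% held the motif on either strand, against 5 of 36 constitutive proteasome genes (13.9%). Besides Psme2 these were Psma4, Psmb3, Psmd7 and Psmg4. The window of Psme1, the other PA28 subunit, did not hold the interferon-stimulated letters. The Psmb9 window held neither that motif nor the gamma-activated letters. It lies head to head with the window of the peptide transporter gene Tap1, which overlaps it. The Tap1 window held the interferon-stimulated letters (TTTCGGTTTC), outside the stretch it shares with the Psmb9 window. TGACNNNGC occurred in 7 of the 36 constitutive genes (19.4%), Psmb5 among them, in 12.1% of all promoters and in none of the 3 immunoproteasome genes. The gamma-activated letters were in 2 of the 36 and 1 of the 3 (Psmb8), with 4.94% of all promoters, and CCAAT was in 18 of the 36 and 2 of the 3, with 37.5% of all. In the Psmb2 window the CCAAT and TGACNNNGC matches share a base. A match describes the letters of the window and no site of binding.

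The immunoproteasome subunits differed between tissues, and no treatment comparison called any of them. All 3 were highest in maternal liver, lower in embryo liver and lowest in embryo bone and whole embryo. Psmb8, which replaces the chymotrypsin-like subunit Psmb5, had log2 values of 11.12 (control), 11.14 (EMD50), 11.06 (EMD150), 11.30 (RA5) and 11.27 (RA56) in maternal liver at day 12. In maternal liver at day 20 the values were 10.82 (control), 11.56 (EMD50), 10.66 (EMD150) and 11.05 (retinoic acid). Embryo liver at day 20 gave 8.43, 8.65, 8.50 and 8.53 in the same order, and embryo bone 7.54, 7.32, 7.23 and 7.59. Each embryo liver array lay below each maternal array and above each bone array, with no overlap. Whole embryos at day 12 had the lowest Psmb8 values, at 6.90 (control), 7.02 (EMD50), 7.17 (EMD150), 6.86 (RA5) and 7.02 (RA56).

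Psmb9, the interferon-inducible counterpart of Psmb6, followed the same order. Maternal liver at day 12 had 10.01 (control), 9.997 (EMD50), 9.86 (EMD150), 10.17 (RA5) and 10.47 (RA56), and at day 20 it had 9.47 (control), 10.34 (EMD50), 9.46 (EMD150) and 10.10 (retinoic acid). Embryo liver had 7.09, 7.18, 6.89 and 7.13, and bone 6.16, 6.00, 6.34 and 6.14, in the order control, EMD50, EMD150 and retinoic acid. Whole embryo had 5.73 (control), 5.99 (EMD50), 6.16 (EMD150), 5.94 (RA5) and 5.94 (RA56). The bone and whole embryo values overlap each other and lie near the low end of the array, where 5% of all values are below 5.73 and 10% below 6.12, so differences of Psmb9 that involve them may be understated.

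Psmb10, the counterpart of the trypsin-like subunit Psmb7, spanned a smaller range. It had 9.58 (control), 9.45 (EMD50), 9.55 (EMD150), 9.72 (RA5) and 9.91 (RA56) in maternal liver at day 12, and 9.37, 10.004, 9.34 and 9.65 at day 20 in the order control, EMD50, EMD150 and retinoic acid. Embryo liver had 8.65, 8.83, 8.33 and 8.66 and bone had 8.15, 7.79, 8.08 and 8.23 in that order. Whole embryo had 8.26 (control), 8.25 (EMD50), 8.06 (EMD150), 7.71 (RA5) and 8.24 (RA56). Maternal liver stood above every embryonic array, while bone and whole embryo overlapped.

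The subunits they replace followed another order. Psmb5 had 11.82, 11.52, 11.95, 11.91 and 11.97 in maternal liver at day 12 and 12.86, 12.81, 12.74, 12.38 and 12.79 in whole embryo, for control, EMD50, EMD150, RA5 and RA56. At day 20 it had 11.84, 11.94, 11.64 and 11.77 in maternal liver, 11.85, 11.88, 11.62 and 11.95 in embryo liver and 11.97, 11.74, 11.91 and 11.96 in bone, for control, EMD50, EMD150 and retinoic acid. Whole embryo stood above all other arrays, and the other tissues overlapped. Psmb7 had 11.48, 11.36, 11.48, 11.62 and 11.56 in maternal liver and 11.87, 12.14, 12.10, 11.86 and 12.55 in whole embryo at day 12, in the same order. At day 20 it had 10.72, 10.90, 11.29 and 11.56 in maternal liver, 11.18, 11.30, 11.13 and 11.42 in embryo liver and 11.14, 10.75, 10.12 and 11.63 in bone. Its lowest value was that of the EMD150 bone array.

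**Figure D1:**
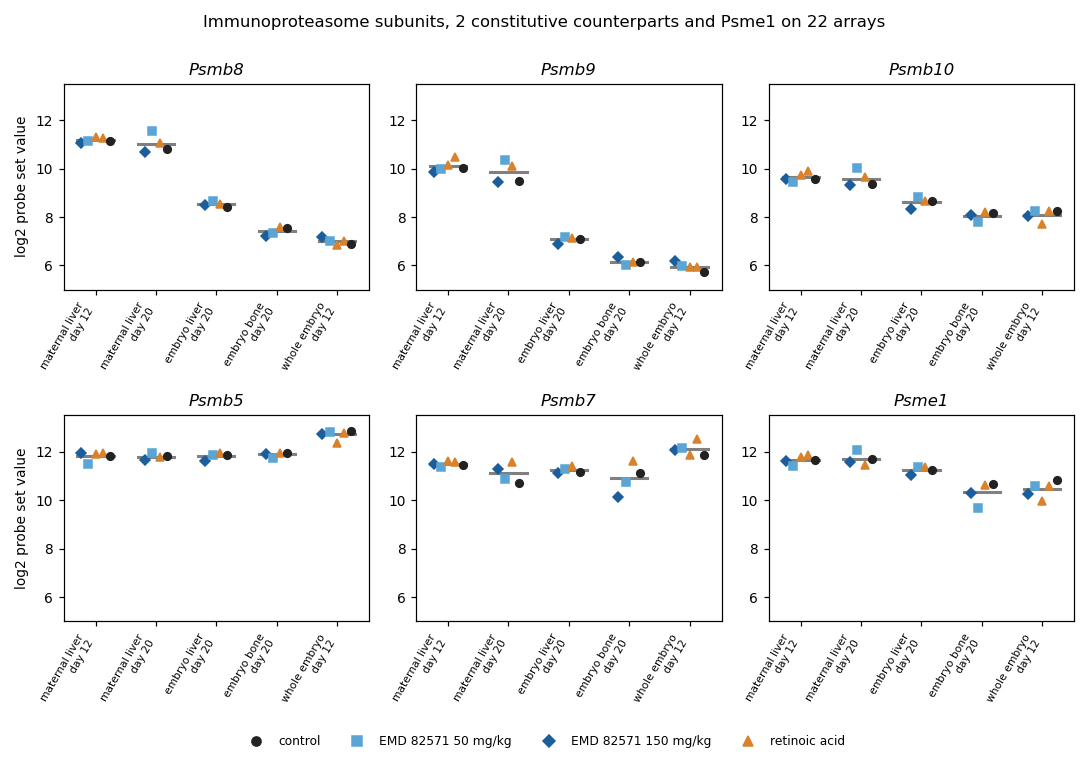
Log2 probe set values (vertical axis) of 6 proteasome genes on the 22 arrays, by tissue and day (horizontal axis); symbols give the treatment and grey bars the mean of a stratum. Psmb8 and Psmb9 step down from maternal liver to whole embryo. Psmb10 steps down from maternal liver to embryo bone, which overlaps whole embryo, while Psmb5 and Psmb7 are highest in whole embryo.

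At day 12 all 3 immunoproteasome genes were lower in whole embryo than in maternal liver, where 34.3% of all probe sets were called lower at an adjusted p under 0.05 (limma, Benjamini-Hochberg over all probe sets). The log2 difference was -4.19 ± 0.12 (SE) for Psmb8 (18.2-fold lower, adjusted p = 1.65e-16). Psmb9 differed by -4.15 ± 0.14 (17.7-fold lower, adjusted p = 2.09e-15) and Psmb10 by -1.54 ± 0.14 (2.91-fold lower, adjusted p = 5.89e-09). Each was lower within 4 of 4 treatments. Among all 15866 probe sets Psmb8 ranked 241 from the lowest difference. The subunits that Psmb8 and Psmb10 replace went the other way: Psmb5 was higher in whole embryo by 0.88 ± 0.11 (adjusted p = 6.61e-07) and Psmb7 by 0.60 ± 0.18 (adjusted p = 0.00675).

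At day 20 the 3 genes were lower in embryo liver than in maternal liver, a comparison in which 16.6% of all probe sets were called lower. Psmb8 differed by -2.50 ± 0.13 (5.64-fold lower, adjusted p = 1.15e-11), Psmb9 by -2.77 ± 0.16 (6.81-fold lower, adjusted p = 2.82e-11) and Psmb10 by -0.97 ± 0.16 (1.97-fold lower, adjusted p = 4.71e-05). Psmb5 (0.03 ± 0.12, adjusted p = 0.892) and Psmb7 (0.14 ± 0.20, adjusted p = 0.645) did not pass the test between the livers, although quantile normalization called Psmb5 higher in embryo liver (0.35, adjusted p = 0.00820). Bulk tissue was measured, so fewer cells of a type and less RNA per cell cannot be told apart here or in any tissue comparison.

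Embryo bone was lower again than embryo liver, with 29.6% of all probe sets called lower. The differences were -1.11 ± 0.13 for Psmb8 (adjusted p = 1.04e-06), -0.91 ± 0.16 for Psmb9 (adjusted p = 7.68e-05) and -0.55 ± 0.16 for Psmb10 (adjusted p = 0.00574). That of Psmb10 did not pass when the 4 arrays named above were left out (-0.42, adjusted p = 0.0930). These are the EMD50 bone array and the retinoic acid arrays of bone, of maternal liver at day 20 and of the whole embryo coded RA56.

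In embryo liver at day 20 the 3 genes were higher than in whole embryo at day 12, with 39.2% of all probe sets called higher. Psmb8 was higher by 1.54 ± 0.13 (adjusted p = 3.65e-09), Psmb9 by 1.15 ± 0.15 (adjusted p = 1.88e-06) and Psmb10 by 0.52 ± 0.15 (adjusted p = 0.00414). Tissue and day differ together in this comparison and in that of embryo bone with whole embryo, so their parts cannot be told apart. Between embryo bone and whole embryo, with 19.9% of probe sets called higher, Psmb8 was higher in bone by 0.44 ± 0.13 (adjusted p = 0.00787). It missed the threshold once all retinoic acid arrays were left out (0.34, adjusted p = 0.133). Psmb9 (0.23 ± 0.15, adjusted p = 0.225) and Psmb10 (-0.03 ± 0.15, adjusted p = 0.884) did not pass. Between the days in maternal liver none of the 3 passed, with differences of -0.15 ± 0.13, -0.24 ± 0.15 and -0.04 ± 0.15 for Psmb8, Psmb9 and Psmb10.

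Psme1 and Psme2 encode the alpha and beta subunits of PA28, the activator that interferon gamma also induces. Psme1 had 11.65 (control), 11.42 (EMD50), 11.62 (EMD150), 11.80 (RA5) and 11.86 (RA56) in maternal liver at day 12, and 10.82, 10.61, 10.26, 9.98 and 10.57 in whole embryo in that order. The groups did not overlap, and the difference was -1.22 ± 0.17 (adjusted p = 3.74e-06). Psme2 had 10.68, 10.76, 10.75, 10.90 and 11.08 in maternal liver and 10.11, 10.26, 10.23, 9.90 and 10.12 in whole embryo, again without overlap. The difference of Psme2 was -0.71 ± 0.10 (adjusted p = 1.56e-06). In embryo bone against embryo liver Psme1 differed by -0.93 ± 0.19 (adjusted p = 0.000540), with 10.68, 9.69, 10.32 and 10.61 in bone and 11.26, 11.37, 11.04 and 11.36 in liver for control, EMD50, EMD150 and retinoic acid.

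Between embryo liver and maternal liver at day 20 Psme2 differed by -0.30 ± 0.11 (adjusted p = 0.0357), and Psme1 by -0.46 ± 0.19 (adjusted p = 0.0793). The call of Psme2 was lost after quantile normalization (-0.04, adjusted p = 0.789) and without any 1 of 6 arrays of these livers, namely the EMD50, EMD150 or retinoic acid array of either. Psme1 passed without the EMD50 bone array (-0.46, adjusted p = 0.0242) and without the RA5 whole embryo array (-0.46, adjusted p = 0.0488). Both genes were higher in embryo liver than in whole embryo, Psme1 by 0.82 ± 0.19 (adjusted p = 0.000749) and Psme2 by 0.31 ± 0.10 (adjusted p = 0.0100), the latter not without all retinoic acid arrays (0.21, adjusted p = 0.121). Psme2 was also called lower in bone than in embryo liver (-0.28 ± 0.11, adjusted p = 0.0320), a call lost without any 1 of 6 arrays of these tissues and without the 4 arrays named above (-0.24, adjusted p = 0.211).

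Over the 22 arrays Psmb8 correlated with Psmb9 at r = 0.994 and with Psmb10 at r = 0.972, and with Psme2 at 0.936 and Psme1 at 0.887. The points share 5 strata and the tissue sets most of these values, so with the stratum means removed the values were 0.748, 0.706, 0.646 and 0.470. They are a description of these 22 arrays.

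The other genes of antigen processing were also mostly lower in whole embryo and embryo liver than in maternal liver. Of 17 measured genes, 15 were lower in whole embryo than in maternal liver at day 12 and none higher, where 34.3% of all probe sets were called lower, with a median difference of -1.14 against -0.04 for all probe sets. B2m, the light chain of class I molecules, differed by -4.93, the class II invariant chain Cd74 by -3.94, the peptide transporter subunit Tap1 by -1.14 and the loading factor Tapbp by -1.34. At day 20, 11 of the 17 were lower in embryo liver than in maternal liver (median -0.54), B2m by -2.29 and Tap1 by -0.47, where 16.6% of all probe sets were called lower. In embryo liver against whole embryo 14 of the 17 were higher, with 39.2% of all probe sets called higher. Of 12 interferon response genes, all 12 were lower in whole embryo than in maternal liver (median -0.96), among them the transcription factor gene Irf1 by -2.28, with the same 34.3% as background. In embryo liver against maternal liver 10 were lower and 1 (Rsad2) higher, where 16.6% and 16.4% of all probe sets were called. Irf1, which binds the interferon-stimulated element, differed there by -1.17.

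Leukocyte markers moved with part of this order. The mean over 16 such genes was 8.35 to 8.52 in maternal liver at day 12 and 7.05 to 7.33 in whole embryo, with 13 lower and none higher in whole embryo (34.3% of all probe sets lower). Between the livers at day 20 the ranges overlapped, at 8.36 to 8.53 in maternal and 8.24 to 8.52 in embryo liver, with 3 markers higher, Lyz2 (1.61) among them, and 4 lower, Cd14 (-2.11) and Cd68 (-0.75) among them. In embryo bone the mean was 8.01 to 8.09. The defining markers Ptprc and Cd3e had differences of -1.17 and -0.12 between whole embryo and maternal liver and of -0.49 and -0.03 between the livers. Their means over all arrays, 6.18 for Ptprc and 5.40 for Cd3e, lie near the low end of the array. There 5% of all values are below 5.73 and 10% below 6.12, so differences of these 2 markers may be understated. The share of leukocytes in the differences of the immunoproteasome genes was not tested. Erythroid genes were higher in embryo liver than in maternal liver (7 of 7), and so were genes of cycling cells (10 of 10), where 16.4% of all probe sets were called higher.

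The constitutive proteasome genes were highest in whole embryo at day 12. Of 38, 28 were higher there than in maternal liver of the same day and 4 lower, while 35.5% of all probe sets were called higher and 34.3% lower (69.8% in either direction). Their median difference was 0.59, against -0.04 for all probe sets and 0.23 for the 10% of probe sets with the highest mean level. All 4 scalings of the arrays kept the direction, with 25 to 28 genes called higher. In 24 of the 38 genes the arrays of both tissues did not overlap, near the 59.8% of all probe sets without overlap, so the count is no result about these genes.

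By role, 6 of 7 alpha ring genes were higher in whole embryo (median 0.60), Psma7 by 0.92 ± 0.12 (adjusted p = 8.47e-07). The alpha subunit not called was Psma4 (0.35 ± 0.19, adjusted p = 0.112). All 6 beta ring genes measured were higher (median 0.57), with Psmb5 at the top. Of the 19S ATPases, which unfold the substrate and open the gate, 4 of 5 were higher (median 0.75), and Psmc3 with a like difference was not called because its error was wider (0.73 ± 0.34, adjusted p = 0.0613). Of the non-ATPase subunits 8 of 9 were higher: the lid subunit Psmd6 led with 1.15 ± 0.14 (2.22-fold, adjusted p = 3.97e-07), the scaffold Psmd2 followed with 0.93 ± 0.16, and Psmd8 was not called (0.27 ± 0.14).

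The activators and some chaperones differed from the core. Psme1, Psme2 and Psmf1, the inhibitor PI31, were lower in whole embryo, Psmf1 by -0.85 ± 0.17 (adjusted p = 0.000229), and Psme4 did not pass (-0.08 ± 0.15, adjusted p = 0.648). The core chaperones Psmg2 (0.96 ± 0.10, adjusted p = 7.43e-08), Psmg3 and Psmg4 and the regulator chaperone Psmd5 were higher, while Psmg1, the partner of Psmg2 in a heterodimer, was not called (0.05 ± 0.11, adjusted p = 0.682). The regulator chaperone Psmd9 was lower (-0.32 ± 0.13, adjusted p = 0.0332) and Psmd10 was not called. Genes of cycling cells were higher on the same arrays (10 of 10, median 3.12, with 35.5% of all probe sets called higher), and their part in the difference was not tested.

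**Figure D2:**
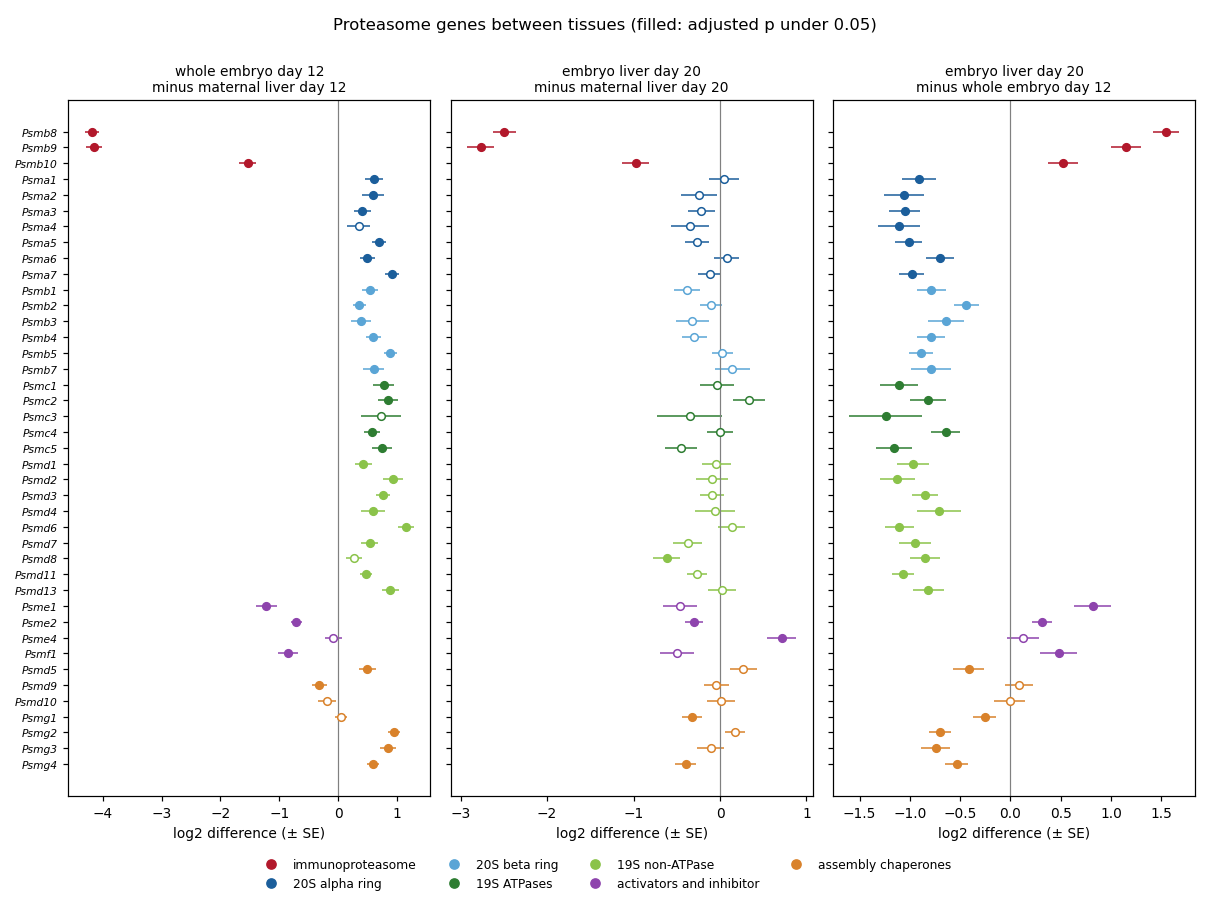
Log2 differences (horizontal axis, with SE from limma) of 41 proteasome genes between tissues, colours by role; filled points passed an adjusted p under 0.05. The core and regulator genes sit to the right in whole embryo against maternal liver at day 12 and near 0 between the livers at day 20, where Psmb8 and Psmb9 lie at -2.50 and -2.77.

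The embryonic tissues of day 20 stood below whole embryo of day 12. Tissue and day differ together in these comparisons, so their parts cannot be told apart. In embryo liver 32 of the 38 constitutive genes were lower than in whole embryo at day 12 and 3 (Psme1, Psme2 and Psmf1) higher, while 33.6% of all probe sets were called lower and 39.2% higher. The median was -0.81, against 0.07 for all probe sets and -0.29 for the brightest 10%. All 7 alpha, all 6 beta and all 14 measured 19S subunits were among the 32, for example Psma7 by -0.98 ± 0.13, Psmb5 by -0.89 ± 0.12 and Psmd6 by -1.10 ± 0.15. The count was 27 lower and 5 higher after quantile normalization. In embryo bone 34 of 38 were lower than in whole embryo and none higher, with 26.7% of all probe sets called lower and a median of -0.75. Psma3, Psme1, Psme2 and Psmd10 were those not called, and the ATPase Psmc1 had the largest difference, -1.57 ± 0.19 (adjusted p = 1.05e-06).

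Few constitutive genes were called between embryo liver and maternal liver. Of 38 genes 4 were lower (Psmd8, Psme2, Psmg1 and Psmg4) and 1 higher (Psme4), where 16.6% of all probe sets were lower and 16.4% higher (33% in either direction). The median difference was -0.11 with 11 of 38 genes above 0, but quantile normalization turned it to 0.04, with 5 genes called higher and 2 lower, so no direction is given for the group. Psmd8, a lid subunit, differed by -0.61 ± 0.16 (adjusted p = 0.00461) and Psmg4 by -0.40 ± 0.12 (adjusted p = 0.0127). Psme4 was higher by 0.72 ± 0.17 (adjusted p = 0.00211) on its brightest probe set, but by 0.43 (adjusted p = 0.0609) on another of its 3 probe sets, and it differed by -0.35 (adjusted p = 0.238) on the third. Psmd11 was not called on its brightest probe set (-0.26, adjusted p = 0.0901), but its second probe set was called lower (-0.48, adjusted p = 0.0104).

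Between embryo bone and embryo liver 19 of the 38 constitutive genes had a difference above 0. Of these genes 4 were higher in bone (Psma3, Psma4, Psma7 and Psmd6) and 7 lower, while 25.6% of all probe sets were called higher and 29.6% lower (55.2% in either direction). Scaling changed the split, to 2 higher and 13 lower after quantile normalization and to 2 and 8 after median centring. Psma3 was higher in bone by 0.72 ± 0.16 (adjusted p = 0.000840) and Psmf1 lower by -1.12 ± 0.19 (adjusted p = 8.21e-05). Psmd11 was not called on its brightest probe set (0.19, adjusted p = 0.174), but its second probe set was called higher in bone (0.46, adjusted p = 0.00902). Maternal liver at day 20 against day 12 gave 1 gene higher, Psmg4 (0.46 ± 0.11, adjusted p = 0.0206), and 1 lower, Psme4 (-0.67 ± 0.16, adjusted p = 0.0182), with 1.99% and 2.48% of all probe sets called in these directions (4.47% in either). Neither call survived in all refits with 1 array left out, and the count ranged from 0 to 3. The other probe sets of Psme4 were not called between the days (-0.55, adjusted p = 0.166, and -0.36, adjusted p = 0.302).

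No EMD 82571 comparison with the control called a proteasome gene. For EMD50 minus control and for EMD150 minus control 0% of all 15866 probe sets passed (limma, adjusted p), while 253 and 2925 of them had an unadjusted p under 0.05, and EMD150 minus EMD50 also called 0% with 2311 at that level. The immunoproteasome genes differed at EMD150 by -0.04 (Psmb8), 0.05 (Psmb9) and -0.13 (Psmb10), and at EMD50 by 0.18, 0.21 and 0.06. The EMD50 differences were largest in maternal liver at day 20, where the EMD50 array was above its control by 0.73 for Psmb8, 0.86 for Psmb9 and 0.64 for Psmb10, against -0.36 to 0.26 in the other 4 strata.

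Among the constitutive genes at EMD150 the smallest p belonged to Psmc2 (-0.48 ± 0.17, adjusted p = 0.212), Psmg1 (-0.30 ± 0.11, adjusted p = 0.212) and Psmb1 (-0.36 ± 0.14, adjusted p = 0.214). Psmg1 was lower in 5 of 5 strata and the other 2 genes in 4 of 5. The Psmc2 value leans on embryo bone, where the EMD150 array had 9.80 and the control 11.24, a difference of -1.44, while the other strata gave 0.003 to -0.43. Over all 38 genes the median was -0.16 with 7 above 0, but the brightest 10% of all probe sets had the same median of -0.16, and the members' median was 0.01 after quantile normalization and -0.04 with each array set to 1 SD. The lower SD of the EMD150 arrays goes with this, and its part was not tested.

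With retinoic acid 4 constitutive genes were higher than in the control and none lower, where 1.78% of all probe sets were called higher and 0.0567% lower. Psma2, an alpha ring subunit, was higher by 0.83 ± 0.18 (1.78-fold, adjusted p = 0.0259) and Psma6 by 0.57 ± 0.12 (1.48-fold, adjusted p = 0.0259). Psme4, which encodes the PA200 activator, was higher by 0.67 ± 0.14 (1.59-fold, adjusted p = 0.0259), and its other probe sets by 0.89 and 0.84, both called. Psmd10, the ATPase chaperone also known as gankyrin, was higher by 0.67 ± 0.14 (1.60-fold, adjusted p = 0.0258). Each was higher in 5 of 5 strata.

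For Psma2 the control and the retinoic acid array had 9.76 and 10.72 in bone, 9.79 and 11.05 in embryo liver, and 9.89 and 10.98 in maternal liver at day 20. In whole embryo the control had 11.08, RA5 11.52 and RA56 12.07, and in maternal liver at day 12 they had 10.67, 10.95 and 10.91. The smallest step was thus in maternal liver at day 12, and in whole embryo the RA56 array stood above RA5. Psmd10 had 8.66 and 9.19 in bone, 8.59 and 9.56 in embryo liver, 8.66 and 9.42 in maternal liver at day 20, 8.42, 9.32 and 9.65 in whole embryo and 9.15, 9.31 and 9.27 in maternal liver at day 12. Psma6 had 10.90 and 11.60 in bone, 10.86 and 11.68 in embryo liver, 10.71 and 11.45 in maternal liver at day 20, 11.71, 11.95 and 12.44 in whole embryo and 11.30, 11.62 and 11.49 in maternal liver at day 12. Psme4 had 9.73 and 10.74 in bone, 10.63 and 11.33 in embryo liver, 9.82 and 10.69 in maternal liver at day 20, 10.60, 11.15 and 11.54 in whole embryo and 10.81, 11.09 and 10.82 in maternal liver at day 12. Every retinoic acid array of these 4 genes lay above the control of its stratum. The EMD50 and EMD150 arrays lay below the retinoic acid arrays of their stratum, with these exceptions. The EMD50 bone array, with the high GAPDH difference, stood above the retinoic acid array for Psma2 (10.99) and Psmd10 (9.29). For Psme4 in maternal liver at day 12, EMD50 (11.00) and EMD150 (10.90) stood above RA56.

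The calls lie near the threshold. The 4 genes kept an adjusted p under 0.05 with quantile normalization and with equal SDs, but 8 of the 22 refits with 1 array left out called 0 constitutive genes for retinoic acid. These were the refits without either of the retinoic acid and control arrays of any day 20 tissue (bone, embryo liver or maternal liver), without the whole embryo control, and without the RA56 whole embryo array. Without the 4 arrays named above the count was also 0, and all of these but the EMD50 bone array are retinoic acid arrays. The retinoic acid array of maternal liver at day 20 has the high level of skeletal muscle genes given above, and both retinoic acid arrays of whole embryo have the highest hepatocyte means of their stratum; the part of these in the calls was not tested.

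The constitutive genes had no common direction with retinoic acid: the median over the 38 was -0.02, with 17 above 0. The other alpha genes had 0.48 (Psma1), 0.51 (Psma3), 0.68 (Psma4), 0.25 (Psma5) and -0.03 (Psma7), none called, while the beta ring ranged from -0.13 to 0.36 with Psmb7 at the top, and the ATPases from -0.24 to 0.06. Psmb8, Psmb9 and Psmb10 differed by 0.11, 0.24 and 0.05, and none was called.

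EMD150 against retinoic acid gave 9 constitutive genes lower and none higher, with 7.89% of all probe sets called lower and 6.49% higher. The brightest 10% of all probe sets had a median difference of -0.18 in this comparison, against 0.02 for all probe sets. The part of brightness in these calls was not tested. The 9 genes were Psma4 (-0.85 ± 0.18, adjusted p = 0.0104), Psma6 (-0.52 ± 0.12, adjusted p = 0.0140), Psma2, Psma3, Psme4, Psmd10, Psmc2, Psmd11 and Psmg1. For Psma4 the EMD150 and the retinoic acid array had 8.79 and 9.89 in bone, 8.24 and 9.93 in embryo liver, and 8.92 and 9.84 in maternal liver at day 20. At day 12 the EMD150, RA5 and RA56 arrays had 9.95, 10.22 and 10.79 in whole embryo and 9.66, 9.88 and 9.96 in maternal liver. Psmg1 was lower at EMD150 in 4 of 5 strata and the other 8 genes in 5 of 5. The second Psmd11 probe set was not called (-0.20, adjusted p = 0.234) and neither was the third of Psme4 (-0.41, adjusted p = 0.0607). After quantile normalization 2 of them were called (Psma3 and Psma4) and with equal SDs 4 (also Psma2 and Psma6). No constitutive gene was called without the 4 arrays named above, and the count was 1 without the EMD150 bone array and 18 without the RA5 whole embryo array. The comparisons of EMD150 and of retinoic acid with the control share the control arrays, and this one shares the treated arrays with both.

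**Figure D3:**
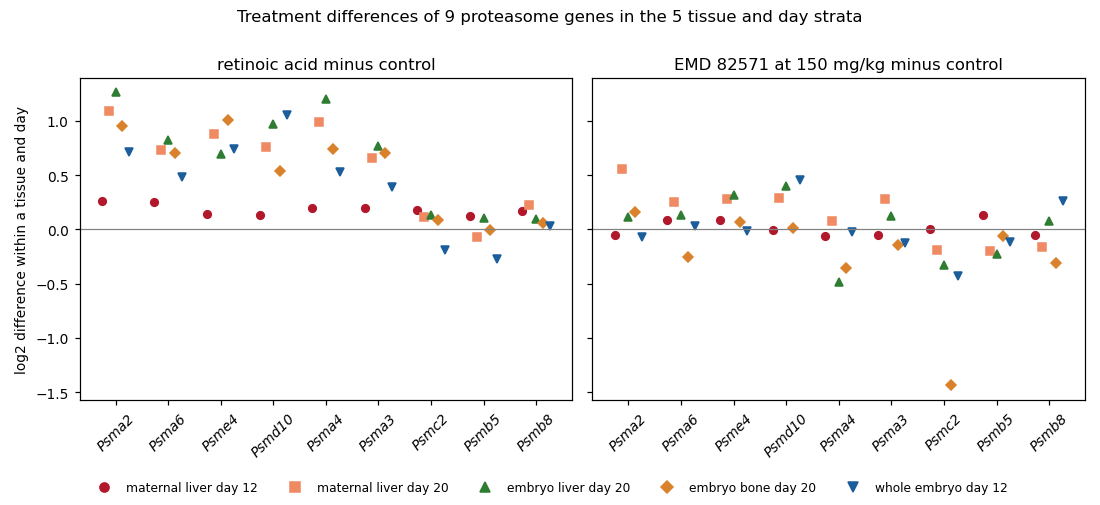
Log2 difference between the treated and the control array (vertical axis; 2 retinoic acid arrays averaged at day 12) for 9 proteasome genes, 1 symbol for each of 5 strata. Psma2, Psma6, Psme4 and Psmd10 are above 0 in all 5 strata with retinoic acid, smallest in maternal liver at day 12, while Psmc2 at EMD150 in embryo bone is the lowest point at -1.44.

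Whether a treatment acted differently on maternal liver and on the conceptus (the 3 strata of embryonic tissue) was asked with an interaction term. It called 0% of all probe sets for EMD150 (limma; 307 at an unadjusted p under 0.05) and 0% for retinoic acid (465), so no proteasome gene was shown to differ between the sides. Within the conceptus retinoic acid called Psma2 (0.97 ± 0.23, adjusted p = 0.0417), Psma6 (0.65 ± 0.16, adjusted p = 0.0470), Psme4 (0.83 ± 0.18, adjusted p = 0.0249) and Psmd10 (0.88 ± 0.18, adjusted p = 0.0199), with 1.81% of all probe sets called higher (1.9% in either direction). In maternal liver these genes differed by 0.63, 0.46, 0.44 and 0.39, none called, with 0% of probe sets called higher and 0.0756% lower.

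The proteasome genes varied together within strata, and not as 1 block. With the stratum means removed, the median correlation over 703 pairs of the 38 genes was 0.406, against -0.007 for all probe sets, and the pairs ranged from -0.62 to 0.95. The first component of all 15866 probe sets held 29.3% of their variance within strata, and 19 of the 38 genes correlated with it above 0.5 and none below -0.5, against 19.3% and 25.2% of all probe sets. This array-wide component was highest on the retinoic acid arrays of bone (0.44), embryo liver (0.33) and the RA56 whole embryo (0.33), and lowest on the EMD150 arrays of bone (-0.44) and embryo liver (-0.29). The members are bright, and probe sets of like brightness were not set beside them here. The part of brightness and of the array SDs in these correlations was not tested.

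Psma2 correlated at 0.75 to 0.94 with Psma6, Psma3, Psma4, Psmd10, Psme4, Psmd11, Psma1 and Psmd1. These include 6 of the other 8 genes called lower in EMD150 than in retinoic acid. Only the stratum means were removed, so treatment differences remain in the correlations and this overlap is no separate result. The other group held Psmd9 (-0.53 with Psma2), Psmd4 (-0.38), Psmc3 (-0.37), Psmg2 (-0.36), Psmd13 (-0.35), Psmb3 (-0.33), Psmd2 (-0.28) and Psme1 (-0.23). With Psma2 counted, the first group holds 5 of the 7 alpha genes and no beta gene, and the other holds 1 beta gene and no alpha gene. The EMD50 bone array, with the GAPDH difference of 2.72, moves with the negative values. Without it (21 arrays) Psmc3 correlated with Psma2 at -0.12, Psmd4 at -0.17, Psmb3 at -0.15, Psmd2 at -0.07 and Psme1 at -0.01, while Psmd9 had -0.40, Psmg2 -0.43 and Psmd13 -0.29, and the first group had 0.72 to 0.94. Without the 4 arrays named above (18 arrays) the first group ranged from 0.31 (Psmd1) to 0.89 and the other from -0.34 to -0.01. The median over the 703 pairs was 0.520 without the EMD50 bone array and 0.519 without the 4 arrays. The values without these arrays were chosen after seeing the data. The correlations are over 22 arrays that share 5 strata and 4 treatments and are given as a description.

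**Figure D4:**
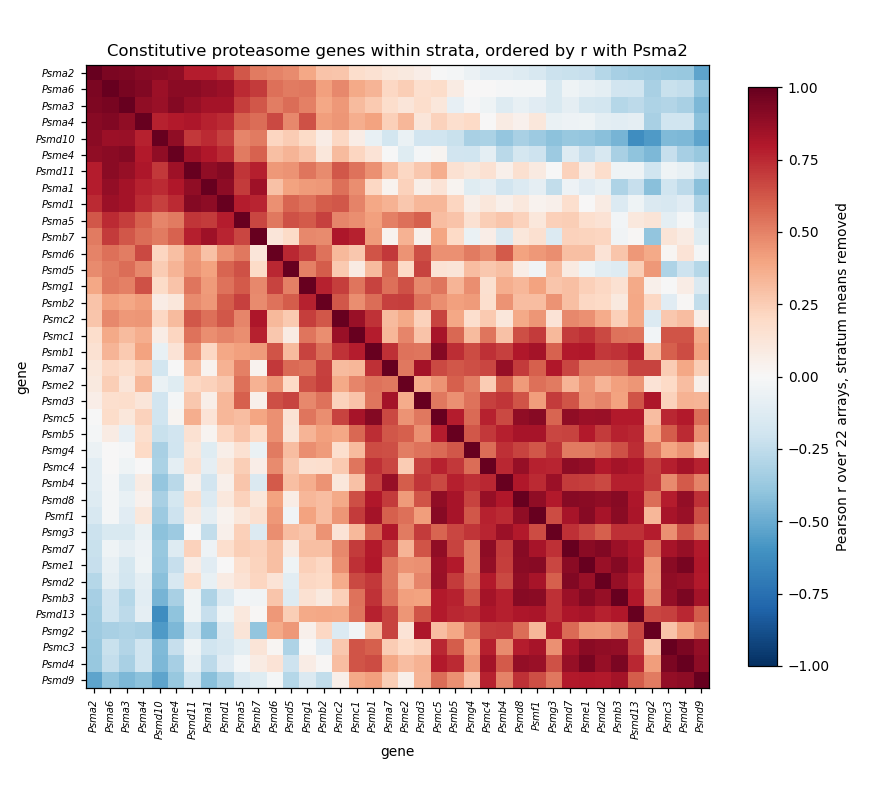
Pearson correlation (colour scale, -1 to 1) between 38 constitutive proteasome genes (both axes) over 22 arrays with the stratum means removed, ordered by the correlation with Psma2. The block at the upper left holds Psma2, Psma6, Psma3, Psma4, Psmd10 and Psme4, and the block at the lower right runs down to Psmd9, which correlates with Psma2 at -0.53, or at -0.40 without the EMD50 bone array.

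Genes that work with the proteasome but lie outside the symbol rule were compared from a list of 19 measured members. In whole embryo against maternal liver at day 12, 10 were higher and 2 lower (median 0.34), where 35.5% and 34.3% of all probe sets were called, among them the ubiquitin-activating enzyme Uba1 (1.23), the regulator subunit Sem1 (1.06) and the shuttle factor Ubqln2 (2.01). The assembly factor Pomp, needed to mature the core, had 0.39. In embryo liver against whole embryo, 17 of 19 were lower and 1, Fbxo7, higher (1.02), where 33.6% of all probe sets were called lower and 39.2% higher. In bone 13 were lower than in whole embryo and 1 higher, with a background of 26.7% lower and 19.9% higher. Between the livers 1 was higher and 6 lower (16.4% and 16.6% of all probe sets). Retinoic acid against the control called none (1.83% in either direction), with a median of -0.02, and EMD150 against retinoic acid called 3 lower (7.89%).

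Of 5 measured genes that control proteasome transcription, 4 were lower and 1 (Foxo4) higher in whole embryo than in maternal liver at day 12, where 69.8% of all probe sets were called in either direction: Nfe2l2, which acts through the antioxidant response element, by -1.75, Nfe2l1, which drives the response to lost proteasome activity, by -0.56, its protease Ddi2 by -0.67, and Stat3 by -1.68. The same 4 were lower in embryo liver than in maternal liver at day 20, Nfe2l2 by -1.38 and Nfe2l1 by -0.40, where 16.6% of all probe sets were called lower. No treatment comparison with the control called any of the 5. The 2 genes that share a proteasome symbol without being subunits, Psmc3ip (a recombination factor) and Psme3ip1, were higher in whole embryo than in maternal liver by 0.57 and 0.90.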

How the data were processed

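Total RNA of 22 samples was measured on an Affymetrix rat array, 1 array a sample. The deposited values are log2 intensities per probe set, made by the authors with RMA per the submitters' processing notes. The sources used here do not give its version, nor whether all arrays were processed together. Of 15923 probe sets 57 controls were left out, and 15866 were tested. By the platform annotation 12783 of these had 1 gene symbol, 312 had several and 2771 had none. No further normalization was applied.

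Groups were taken from the sample labels. Differences were fitted with limma 3.58.1 (R 4.3.3, statmod 1.5.0; lmFit, eBayes with an intensity trend) on all 22 arrays, with stratum and treatment as additive terms and 14 residual degrees of freedom, so the spread between arrays comes from treatment differences that vary over strata. A model with treatment terms for maternal liver (9 arrays) and conceptus (13 arrays) had 11. Tests are two-sided, with Benjamini-Hochberg adjustment over all probe sets and a threshold of 0.05. A gene with several probe sets is represented by the one with the highest mean over all arrays. By rule, Psmb8, Psmb9, Psmb10, Psmb5, Psmb7, Psme1 and Psme2 were given array by array, and each comparison named up to 5 called members per direction with the smallest adjusted p, or the 3 members with the smallest p where fewer than 3 were called. Other genes named complete a role or list and were chosen after their values were seen. The members and the gene lists were chosen with earlier results of these data known. Summaries and plots used Python 3.11.15, pandas 2.3.3, numpy 2.4.6 and matplotlib 3.10.9.

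The fit was tested on simulated data for 15866 probe sets, with 200 changed by 0.5 and another 200 by 1 on the log2 scale. Of changes of 0.5 it recovered 72.5% for EMD150 minus control and 57.5% for embryo liver minus maternal liver. Of changes of 1 it recovered 98% in each. Noise was drawn for each probe set on its own, while the real arrays share variation across probe sets, so recovery in these data may differ. Alternatives were other variance priors, quantile normalization, median centring, a filter on low probe sets, array weights, gene means, treatment and day as a random block, no treatment term, leaving out 4 arrays, all retinoic acid arrays or each array in turn, and, chosen after seeing the data, each array set to 1 median and 1 SD, and RA5 and RA56 as separate terms. The number of arrays limits the precision.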

Additional observations from a re-analysis of the deposited data

How the results depend on the processing

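The codes RA5 and RA56, whose meaning the sources do not give, are shared by both retinoic acid groups of day 12, and the other groups have 1 array. A fit with RA5 and RA56 as separate treatment terms called 32 constitutive genes for whole embryo minus maternal liver, as the main fit did. It was chosen after seeing the data, and the counts of the other 5 tissue comparisons stayed within 1 gene. Whether the codes pair samples was not tested. Treatment and day as a random block had a consensus correlation of -0.0155. Of 3038 alternative values of named genes, 3007 kept their side of the threshold, 10 newly passed it and 21 no longer did. A change of sign where neither fit called the gene was counted as kept, and no called value changed sign. The number of constitutive genes called moved as follows. For retinoic acid minus control (4) it was 8 with array weights and 0 without the 4 arrays, and 0 to 7 with 1 array left out. For EMD150 minus retinoic acid (9) it was 2 after quantile normalization, 4 with equal SDs and 0 without the 4 arrays, and 1 to 18 with 1 array left out. For embryo liver minus maternal liver (5) quantile normalization gave 7 and turned the balance to higher, array weights gave 12 and equal SDs 3, and 1 array left out gave 2 to 10: 2 without the EMD150 embryo liver array, 3 without the EMD50 embryo liver array or the EMD50 or EMD150 array of maternal liver, 9 without the EMD50 bone array and 10 without the RA5 whole embryo array. For maternal liver at day 20 minus day 12 (2) it was 7 with array weights, 1 with gene means, 1 with no treatment term and 5 without the 4 arrays, and 0 to 3 with 1 array left out. For embryo bone minus embryo liver (11) it ranged, with 1 array left out, from 7, without the control embryo liver array, to 13. The count of that comparison after quantile normalization, given above, lay above this range. With 1 array left out it ranged from 29 to 33 for whole embryo minus maternal liver. Such refits gave 33 to 35 for bone minus whole embryo and 32 to 35 for embryo liver minus whole embryo. The cause of these moves was not tested beyond the smaller number of arrays. Psmb8 and Psmb9 differed between whole embryo and maternal liver by -4.28 to -3.99 and by -4.25 to -3.99 over all alternatives, and between the livers by -2.60 to -2.32 and -2.90 to -2.57.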

Other observations

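The 8 genes whose values over the 22 arrays were most like the mean of Psmb8, Psmb9 and Psmb10 were Tmem53 (r = 0.993), Hal (0.992), Slc22a7 (0.991), Apcs (0.991), Suox (0.990), Slc27a5 (0.990), Igfals (0.990) and P2ry2 (0.989). With the stratum means removed the values of these 8 genes lay between 0.0987 and 0.634. The arrays share 5 strata, and the correlations are a description of them.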
